A study of Mus musculus with 2 samples.

Results

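The genes described here are 9 cytochrome P450 genes of the Cyp2d, Cyp2f, Cyp2j and Cyp2u subfamilies. They are Cyp2d9, Cyp2d10, Cyp2d22, Cyp2d26, Cyp2d40, Cyp2f2, Cyp2j5, Cyp2j6 and Cyp2u1. They were taken by gene symbol, from a choice made with earlier results of these data known. All 9 were found among the 15526 genes listed. The AAOT group was 3 female NOG-TKm30 mice, 22 weeks old, that received AAOT (acetoaceto-o-toluidide) at 0.3% over 4 weeks, and the control group was 3 such mice of the same age and sex kept at 0% for that time. The labels do not say how the compound was given. Liver RNA of the 3 mice of a group was mixed before sequencing, so each group is 1 library. NOG mice are severely immunodeficient, and mice of both groups carry the TKm30 transgene, a mutant thymidine kinase cDNA of herpes simplex virus driven by the mouse transthyretin enhancer and promoter, which is active in hepatocytes. The labels name C57BL as the strain background, and the design text names NOG.

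Cytochromes P450 of family 2 are heme enzymes of the endoplasmic reticulum that oxidise drugs, steroids and fatty acids. They take electrons from NADPH through P450 oxidoreductase. The Cyp2d enzymes act on many basic drugs in humans and rodents and are known for weak induction by xenobiotics. Cyp2f2 is best known in mouse for the activation of naphthalene in lung club cells, and in liver it marks periportal hepatocytes. Cyp2j enzymes are known for forming epoxides of arachidonic acid, and CYP2U1 is known from human work for hydroxylating long fatty acids near the end of the chain.

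All 9 encode the loop whose cysteine binds the heme iron. The 30 coding bases of this loop are shown here as a short stretch to compare, which is too short to rank the genes by relatedness. They were read from GENCODE M21 transcripts (GRCm38), 5′ to 3′ on the coding strand, with the cysteine codon in capitals. In each gene the loop is split by the last intron.

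Cyp2d9: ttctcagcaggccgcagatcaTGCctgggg
Cyp2d10: ttctcagcaggccgcagatcaTGCctgggt
Cyp2d22: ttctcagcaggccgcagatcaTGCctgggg
Cyp2d26: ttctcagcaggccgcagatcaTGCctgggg
Cyp2d40: ttctcagcaggccgtcgagcaTGTctgggt
Cyp2f2: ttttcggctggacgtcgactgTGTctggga
Cyp2j5: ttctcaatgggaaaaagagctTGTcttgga
Cyp2j6: ttctcaatgggaaagcgagctTGCctggga
Cyp2u1: tttgggatagggaagcgggtgTGTatggga

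Cyp2d9, Cyp2d22 and Cyp2d26 have the same 30 bases, and each differs from Cyp2d10 by 1 base. Cyp2d40 differs from Cyp2d10 by 4 bases, Cyp2f2 by 11, Cyp2j6 by 11, Cyp2j5 by 12 and Cyp2u1 by 18. With its intron the loop runs over chr15:82403077-82403206 on the minus strand in Cyp2d10, over chr7:27132606-27133235 on the plus strand in Cyp2f2, over chr4:96629627-96630720 on the minus strand in Cyp2j5 and over chr3:131291288-131293526 on the minus strand in Cyp2u1.

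Across whole coding sequences, Cyp2d9 and Cyp2d10 were identical at 92.5% of aligned bases and Cyp2d10 and Cyp2d26 at 82.6%. Cyp2d22 was identical to Cyp2d10 at 79.1%. Cyp2d40 was identical to Cyp2d10 at 85.3%, but over 1014 aligned bases only. Its transcript model has 6 exons and 1014 coding bases, against 1512 coding bases for Cyp2d10. The value of Cyp2d40 therefore covers a part of the sequence and cannot be ranked with the others. Cyp2j5 and Cyp2j6 were identical at 80.6%, and Cyp2f2 and Cyp2u1 at 64.2%. This matters for read counts. Only 59.5% of the 50-base stretches of the Cyp2d10 transcript occur in no other gene, against 71.0% for Cyp2d9, 75.9% for Cyp2d40, 89.5% for Cyp2d26 and 93.9% for Cyp2d22. Cyp2d10 shares 25.9% of its stretches with Cyp2d11, which is not analysed here. Cyp2f2 has 100% unique stretches, Cyp2j5 99.8%, Cyp2j6 99.6% and Cyp2u1 96.9%. The shared stretches of Cyp2u1 are few but spread over 171 other genes. Reads of all 5 Cyp2d genes of the set, Cyp2d22 to the smallest extent by this measure, could therefore be split between copies by the counting, and single values of these genes are uncertain.

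**Figure D1:**
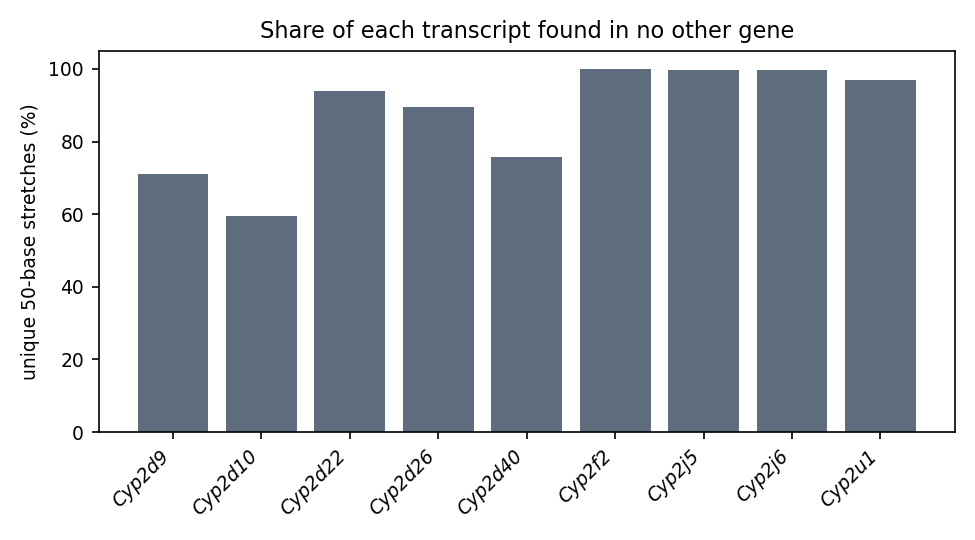
Bars give the percentage of 50-base stretches of each gene's longest protein-coding GENCODE transcript found in that gene alone. Cyp2d10 is lowest at 59.5%, and Cyp2f2 reaches 100%.

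The AAOT library held 16528533 reads assigned to genes and the control library 18801241. With no replicate library, no spread between mice can be estimated and no p-value is given. Values are CPM on the authors' scale, in which a scaling factor per library enters beside its size. The columns sum to 987690 CPM in the AAOT pool and 1012463 CPM in the control pool. A fold is the ratio of the AAOT CPM to the control CPM, with an exact 95% interval that covers counting error only. In whole-tissue RNA, fewer cells of a type and less RNA per cell cannot be told apart. Hepatocyte markers summed to 69419.8 CPM in the AAOT pool and 78940.5 CPM in the control pool, with 6 of 6 listed. Most of that sum is Alb, and the markers differed in direction. Tat (ratio 1.34) and Cps1 (1.20) were higher, while Alb (0.881), Serpina1c (0.785), Ttr (0.779) and Apoa1 (0.612) were lower. The sum was 268 CPM in the AAOT pool and 253 CPM in the control pool for Kupffer cell markers, and 404 CPM in the AAOT pool and 463 CPM in the control pool for stellate cell markers. Sinusoidal endothelium was at 335 CPM in both pools and erythroid markers summed to 179.8 CPM in the AAOT pool and 179 CPM in the control pool. Among the erythroid markers Hbb-bs had 102 reads in the AAOT pool and 0 reads in the control pool, while Hba-a1 was at 156 CPM in the AAOT pool and 161 CPM in the control pool. Cholangiocyte markers summed to 35.3 CPM in the AAOT pool and 44.8 CPM in the control pool, and intestine markers, mostly Fabp2, to 40.8 CPM in the AAOT pool and 53.7 CPM in the control pool. Of 6 lymphocyte markers only Ptprc was listed, at 8.66 CPM in the AAOT pool and 9.42 CPM in the control pool. Lung club cell markers, which would accompany Cyp2f2 from lung, had 0 of 4 listed. Of 4 kidney tubule markers 1 was listed, Lrp2, at 0.418 CPM in the AAOT pool and 0.754 CPM in the control pool. The part of these markers in the ratios was not tested.

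In the counts that follow, a gene is called 2-fold higher or lower from log2((AAOT CPM + 1)/(control CPM + 1)), among genes with a mean of at least 10 CPM over both pools. Of the 7761 genes at that level, 1.20% were at least 2-fold apart, 0.773% higher and 0.425% lower in the AAOT pool. All 9 genes of the set reached 10 CPM, and 11 of 14 did when the other listed genes of these subfamilies are added. None of the 9 was at least 2-fold higher (0) and none at least 2-fold lower (0). The median log2 ratio of the 9 was 0.05, beside -0.02 over all 7761 genes, and 6 of 9 lay above 0, beside 46.4% of all genes. A total of 8 of 9 fell between the 10th and 90th percentile of all genes, at ratios of 0.838 and 1.19, which hold 80% of genes by construction. The exception was Cyp2u1. At the smaller size of 1.5-fold, 1 of 9 was lower, beside 1.39% of all genes, and 0 were higher, beside 2.07%, while 3.47% of all genes were that far apart in either direction.

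The Cyp2d genes lie in 1 cluster on chromosome 15 (GRCm38.p6, RefSeq), between Cyp2d22, which begins at 82370527, and Cyp2d26, which ends at 82794452. As a subfamily they were close to equal between the pools. The 8 listed Cyp2d genes summed to 2459 CPM in the AAOT pool and 2389.7 CPM in the control pool, a ratio of 1.03 (1.02 to 1.04). This sum depends less on how reads were split between copies than any single value. Its log2 ratio was 0.04, and rescaling each column to its own total alone adds 0.036 to log2 ratios.

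Cyp2d26 (82790107 to 82794452) was among the most abundant Cyp2d transcripts and was at 843 CPM in the AAOT pool and 857 CPM in the control pool. Its ratio was 0.983, with an interval of 0.961 to 1.006 that holds equality. Cyp2d10 (82402845 to 82407253) was as abundant, at 841 CPM in the AAOT pool and 838 CPM in the control pool. On the authors' scale its ratio of 1.004 (0.981 to 1.03) was the nearest to equality of the 9. Of all genes, 3.16% had a log2 ratio nearer to 0. With each column rescaled to its own total, Cyp2d26 was nearer, at a log2 ratio of 0.011 against 0.042 for Cyp2d10. With 14081 reads of Cyp2d10 in the AAOT pool and 15560 in the control pool, counting error alone leaves room for a few percent in either direction. The interval covers neither scaling, which moved the value outside it, nor the assignment of reads shared with other genes. Only 59.5% of the stretches of Cyp2d10 are unique, so its ratio is less certain than the interval shows.

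Cyp2d22 (82370527 to 82380260), often treated as the mouse counterpart of human CYP2D6, stood higher than the other Cyp2d genes of the set. It was at 439 CPM in the AAOT pool and 373 CPM in the control pool, a ratio of 1.18 (1.14 to 1.21). Its interval excludes equality and does not overlap those of Cyp2d9, Cyp2d10, Cyp2d26 or Cyp2d40. The size is not unusual among all genes, of which 77.2% had a log2 ratio nearer to 0. Of its 50-base stretches 93.9% are unique, and the rest are shared with 9 genes. Summed with the listed genes among them, its log2 ratio of 0.23 became 0.04. That sum holds Cyp2d10 and Cyp2d26, each more abundant than Cyp2d22, so it mostly reports other genes. It cannot show whether reads of Cyp2d22 were split between copies.

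Cyp2d9 (82452377 to 82456827), a testosterone hydroxylase with male-predominant expression in mouse liver, was at 70.3 CPM in the AAOT pool and 68.0 CPM in the control pool of these female mice. The ratio was 1.03 (0.955 to 1.12), so the interval holds equality. Cyp2d40 (82759833 to 82764122) was the lowest of the 5, at 41.7 CPM in the AAOT pool and 45.9 CPM in the control pool. Its ratio of 0.907 had an interval of 0.819 to 1.003 that just holds equality.

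The remaining listed Cyp2d genes include pseudogenes. Cyp2d13, annotated by RefSeq as a transcribed pseudogene, was at 205 CPM in the AAOT pool and 192 CPM in the control pool, a ratio of 1.06 (1.02 to 1.12). No GENCODE M21 transcript was found under the symbol Cyp2d13, so no shared stretches were counted under its name. It is therefore left out where a gene is summed with listed genes that share stretches with it. The transcribed pseudogene Cyp2d37-ps was at 18.5 CPM in the AAOT pool and 14.6 CPM in the control pool, a ratio of 1.26 (1.07 to 1.49). Cyp2d12 had 3 reads in the AAOT pool and 0 reads in the control pool, too few for a ratio.

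**Figure D2:**
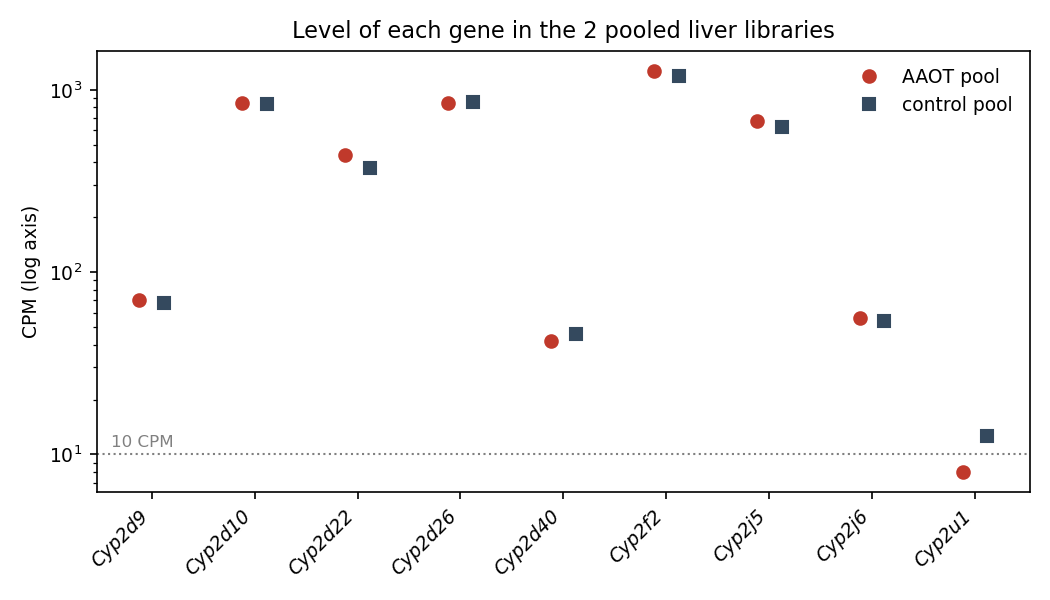
Points give the CPM of each gene (log axis) in the AAOT pool (circles) and the control pool (squares), 1 library each. The levels run from about 1271 CPM for Cyp2f2 to 8.01 CPM for Cyp2u1 in the AAOT pool, and the paired points differ little except for Cyp2u1.

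Promoter stretches, placed around a TTTATA match, are shown for the 4 Cyp2d genes of the set that had a window. Their ratios ran from 0.907 for Cyp2d40 to 1.03 for Cyp2d9, and their levels differed widely. Cyp2d22, at 1.18, is not among them because no window was given for it. The stretches come from RefSeq windows on GRCm38.p6 that reach from 250 bases before to 50 bases after a gene's start. Windows were given for 7 of the 9 genes, all but Cyp2d22 and Cyp2u1. The start site used is the one of the window, which lies inside the gene's full span in Cyp2d10, Cyp2d26, Cyp2j5 and Cyp2j6. Each stretch is 106 bases, 5′ to 3′ in the direction of transcription. It ends 1 base before the start site in Cyp2d10 and Cyp2d26, at base 3 after it in Cyp2d9 and 61 bases before it in Cyp2d40. Capitals mark the letters of 3 motifs that were searched on both strands.

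Cyp2d10: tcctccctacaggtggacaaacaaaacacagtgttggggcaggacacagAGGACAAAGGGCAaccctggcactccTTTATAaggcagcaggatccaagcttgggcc
Cyp2d9: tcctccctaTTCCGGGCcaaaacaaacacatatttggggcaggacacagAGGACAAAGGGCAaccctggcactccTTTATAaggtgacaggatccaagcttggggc
Cyp2d40: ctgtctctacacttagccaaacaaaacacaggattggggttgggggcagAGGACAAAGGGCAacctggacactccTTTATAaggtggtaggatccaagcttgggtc
Cyp2d26: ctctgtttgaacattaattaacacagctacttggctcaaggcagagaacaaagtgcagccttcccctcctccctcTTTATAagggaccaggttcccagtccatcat

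The stretches lie at chr15:82407195-82407300 on the minus strand for Cyp2d10, chr15:82452274-82452379 on the plus strand for Cyp2d9, chr15:82764183-82764288 on the minus strand for Cyp2d40 and chr15:82794246-82794351 on the minus strand for Cyp2d26. TATAAA, the letters of a TATA box, was found only on the reverse strand, as TTTATA, in all 4 and also in Cyp2j5. Read in the direction of transcription, the 4 stretches continue there as TTTATAAGG. The TTTATA match begins 31 bases before the start site in Cyp2d10 and Cyp2d26, 28 before it in Cyp2d9 and 91 before it in Cyp2d40. In Cyp2j5 it begins 128 bases before the start site. TATAAA occurs on either strand in 13.6% of the 32851 windows. A direct repeat of AGGNCA with 1 base between the copies, of the kind that nuclear receptors such as HNF4A bind, was found in Cyp2d9, Cyp2d10 and Cyp2d40 as AGGACAAAGGGCA. It begins 57 bases before the start site in Cyp2d10, 54 before it in Cyp2d9 and 117 before it in Cyp2d40, and is present in 0.381% of windows. A second match in Cyp2d40, on the reverse strand 33 bases after its start site, is not in the stretch shown. All 5 motifs searched were picked after the sequences had been seen.

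TTCCGGGC, an element described in mouse for the Cyp2d9 promoter, was found in Cyp2d9 alone among the 7 windows, 94 bases before its start site, and in 1.40% of all windows. The STAT motif TTCNNNGAA, in 8.30% of all windows, had 0 matches in the 7. A direct repeat of AGGTCA with 4 bases between the copies, the spacing known for CAR and PXR, was found in 0.0152% of all windows and had 0 matches in the 7. The matches within a window do not overlap each other. A match is only a run of letters and says nothing here about binding.

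Over the 300 bases of their windows Cyp2d9 and Cyp2d10 align with 252 identical bases. Per kb of transcript, the level of Cyp2d10 was 511 CPM in the AAOT pool and 508 CPM in the control pool, and that of Cyp2d9 was 41.1 CPM in the AAOT pool and 39.7 CPM in the control pool.

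Cyp2f2 (chromosome 7, 27119955 to 27133660, 10 exons, plus strand) was the most abundant of the 9. It was at 1271 CPM in the AAOT pool and 1183 CPM in the control pool, a ratio of 1.07 (1.05 to 1.09). The interval excludes equality, but 44.1% of all genes had a log2 ratio nearer to 0. The gene sits at the edge of the Cyp2a and Cyp2b cluster, and its neighbours there differed in ratio. The nearest listed one, Cyp2a12, 83.1 kb away, was at a ratio of 1.14 (1.10 to 1.17). Cyp2a22, 181 kb away, was at 2.71 (2.41 to 3.04), and the coumarin hydroxylase gene Cyp2a5, 277 kb away, was at 4.61 (4.48 to 4.75). On the other side the nearest listed gene, Egln2, was at 1.04 (0.953 to 1.14).

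Cyp2f2 has a periportal pattern in liver, so other zonated genes are given beside it. Of 18 listed periportal genes at 10 CPM or more, 0 were at least 2-fold higher or lower and the median log2 ratio was 0.07. The farthest from 0 were Etnppl at -0.48, Asl at 0.45, Hsd17b6 at -0.32 and Gls2 at 0.31. Of 20 pericentral genes, 2 were at least 2-fold higher and 0 lower, and the median was -0.15. The 2 higher ones were Cyp2a5 and Cyp2c29, which are also P450 genes of the CAR-induced clusters. Next in distance from 0 came Slc13a3 at -0.97 and Cyp1a2 at 0.92. The plain CPM ratio of Slc13a3 was 0.4998 (0.444 to 0.561), and adding 1 CPM to both values keeps it out of the 2-fold count.

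The Cyp2j genes lie in a cluster on chromosome 4. Cyp2j5 (96627432 to 96664171), an arachidonic acid epoxygenase of mouse kidney and liver, carried most of its reads. It was at 677 CPM in the AAOT pool and 621 CPM in the control pool, a ratio of 1.09 (1.06 to 1.12). Cyp2j6 (96516138 to 96564305) was at 55.9 CPM in the AAOT pool and 53.6 CPM in the control pool, a ratio of 1.04 whose interval of 0.953 to 1.14 holds equality. The intervals of Cyp2j5 and Cyp2j6 overlap each other.

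Cyp2j9, which is expressed in mouse brain, had 135 reads in the AAOT pool and 124 reads in the control pool, a ratio of 1.21 (0.940 to 1.55). Cyp2j13 had 2 reads in the AAOT pool and 1 read in the control pool. The 4 listed Cyp2j genes summed to 741 CPM in the AAOT pool and 682 CPM in the control pool, a ratio of 1.09 (1.06 to 1.11). These genes share almost no 50-base stretches, so a split of reads between copies touches them little.

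Cyp2u1 (chromosome 3, 131290491 to 131304157, 5 exons, minus strand) was the gene farthest from equality and the least abundant. It was at 8.01 CPM in the AAOT pool and 12.5 CPM in the control pool, 1.57-fold lower (1.26 to 1.95). These levels rest on 134 reads in the AAOT pool and 233 reads in the control pool. Its log2 ratio was -0.59, farther from 0 than that of 96.6% of all genes and just past the 1.5-fold size at 0.585. It fell short of that size with 5 CPM added in place of 1 CPM (-0.43), with each column rescaled to its own total (-0.56) and with totals taken without the 20 most abundant genes (-0.57). Its mean of 10.3 CPM lies just above the level required of a gene to be counted. The interval does not overlap that of any other of the 9 genes. The neighbours of Cyp2u1 differed less, with Hadh, a gene of mitochondrial fatty acid oxidation 18.4 kb away, at a ratio of 0.965 (0.932 to 1.0004) and the sphingomyelin synthase gene Sgms2, 14.8 kb away, at 1.18 (1.11 to 1.26).

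**Figure D3:**
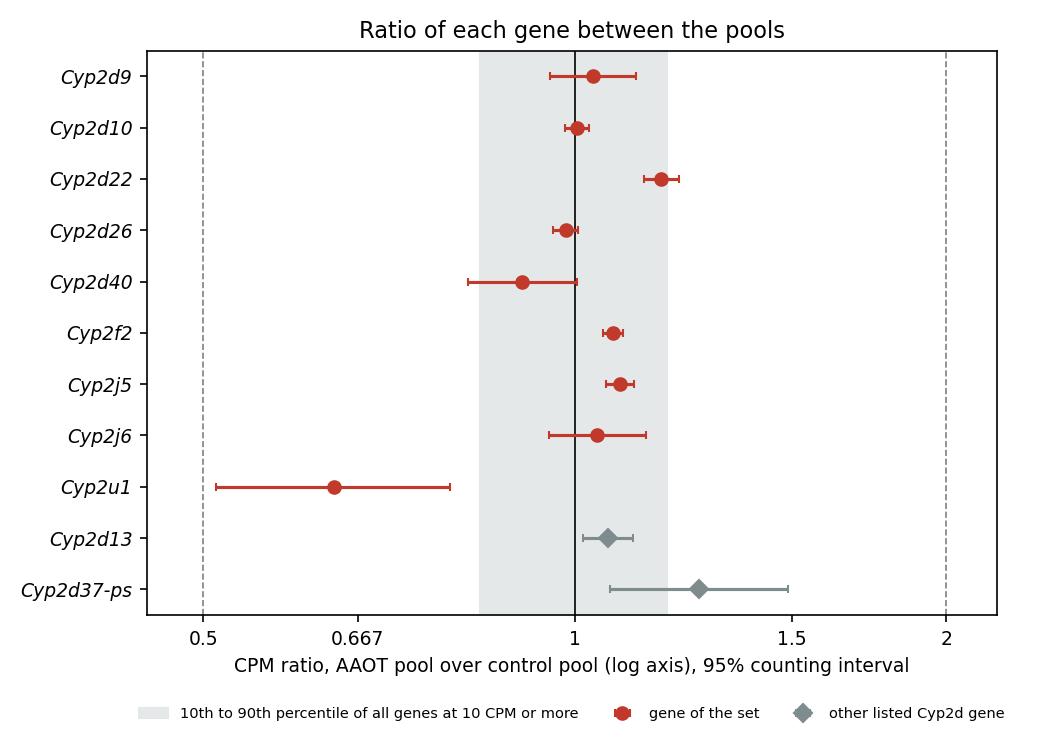
Points give the CPM ratio of the AAOT pool over the control pool (log axis) with its 95% counting interval for the 9 genes (circles) and the other Cyp2d genes at 10 CPM or more (diamonds). The shaded band spans the 10th to 90th percentile of 7761 genes, 0.838 to 1.19, dashed lines mark 2-fold, and only Cyp2u1 of the 9 lies outside the band.

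The counting interval excluded equality for 4 of the 9 genes. Cyp2d22, Cyp2f2 and Cyp2j5 were above it, beside 18.7% of all genes. Cyp2u1 was below it, beside 20.8% of all genes. Together the 4 are 44.4% of the 9, near the 39.5% of all 7761 genes.

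Per kb of transcript, the order of levels was the same in both pools. Cyp2f2 led, at 681 CPM per kb in the AAOT pool and 634 in the control pool, followed by Cyp2d10, Cyp2d26, Cyp2j5, Cyp2d22, Cyp2d9, Cyp2d40, Cyp2j6 and Cyp2u1. Cyp2u1 was at 1.83 CPM per kb in the AAOT pool and 2.87 in the control pool. Cyp2d10 and Cyp2d26 were not separated by their counting intervals in either pool. Cyp2d9 and Cyp2d40 were not separated in the control pool, at 39.7 and 39.5 CPM per kb. With 2 libraries, a ranking of other genes by likeness of pattern was not made.

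Set against the other P450 genes of family 2, the sum of the 9 genes differed little between the pools. It was 4246 CPM in the AAOT pool and 4054 CPM in the control pool, a ratio of 1.05 (1.04 to 1.06). The Cyp2c genes summed to 17642 CPM in the AAOT pool and 5822 CPM in the control pool, and the Cyp2a and Cyp2b genes to 4008 CPM in the AAOT pool and 1830.1 CPM in the control pool. Among those at 10 CPM or more, 3 of 13 Cyp2c genes and 4 of 7 Cyp2a and Cyp2b genes were at least 2-fold higher. The log2 ratios farthest from 0 were 4.39 for Cyp2c55, 4.03 for Cyp2b10, 3.03 for Cyp2c29, followed by Cyp2a5 with its plain ratio of 4.61. Cyp2e1, which oxidises ethanol and other small molecules, stood on the other side of equality, at 5603 CPM in the AAOT pool and 7633 CPM in the control pool, a ratio of 0.734 (0.728 to 0.740). Its share of the Cyp2 reads was 17.6% in the AAOT pool and 39.0% in the control pool. As a share of reads of all 40 listed Cyp2 genes, the 9 held 13.4% in the AAOT pool (exact binomial interval 13.3 to 13.5), against 20.7% in the control pool (20.6 to 20.9). With 1 library per group the difference between these gene sets could not be tested.

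**Figure D4:**
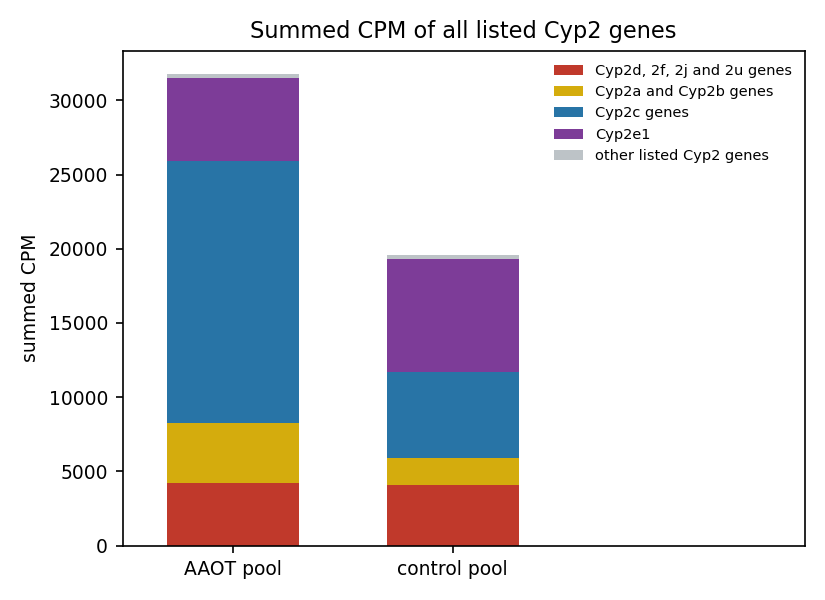
Bars give the summed CPM of all listed Cyp2 genes in the AAOT pool and the control pool, divided by gene set. The segment of the 9 genes is 4246 CPM in the AAOT pool and 4054 CPM in the control pool, while the Cyp2c segment is 17642 CPM in the AAOT pool and 5822 CPM in the control pool.

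Genes that serve P450 enzymes with electrons and heme were higher than the 9 genes by median. Of 9 listed, 8 were at 10 CPM or more, 0 were at least 2-fold higher or lower, 7 of 8 lay above 0 and the median log2 ratio was 0.36. Alas1, whose enzyme makes the first intermediate of heme, was at 380 CPM in the AAOT pool and 190 CPM in the control pool, a plain CPM ratio of 2.003 (1.92 to 2.09). It is not in the 2-fold count because adding 1 CPM to both values brings its log2 ratio to 0.998. Por, the oxidoreductase that every one of these enzymes needs, was at 491 CPM in the AAOT pool and 384 CPM in the control pool, a log2 ratio of 0.35. Cyb5r3, a cytochrome b5 reductase, was at 541 CPM in the AAOT pool and 354 CPM in the control pool, a log2 ratio of 0.61, and Cyb5b was at 623 CPM in the AAOT pool and 425 CPM in the control pool, a log2 ratio of 0.55. Pgrmc1, a heme-binding partner of P450 enzymes, had a log2 ratio of 0.36.

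Among genes of the epoxy fatty acid pathway, in which Cyp2j products are made and broken down, 10 of 16 listed were at 10 CPM or more. Of these 0 were at least 2-fold higher or lower, and the median log2 ratio was 0.004. Ephx2, the soluble hydrolase that opens fatty acid epoxides, was at 540.3 CPM in the AAOT pool and 569 CPM in the control pool, a log2 ratio of -0.07. Ephx1, the microsomal hydrolase, was at 784 CPM in the AAOT pool and 584 CPM in the control pool, a log2 ratio of 0.43. Cyp2c44, an epoxygenase of the same pathway, was at 176 CPM in the AAOT pool and 175 CPM in the control pool. Cyp4a14, a fatty acid hydroxylase, was at 376 CPM in the AAOT pool and 568 CPM in the control pool, a log2 ratio of -0.59. Cyp4f14 and Ptgs1 had log2 ratios of 0.14 and -0.14.

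Transcription factors and receptors that govern liver P450 genes had 23 of 23 at 10 CPM or more, 0 at least 2-fold higher or lower and a median log2 ratio of -0.03. The farthest from 0 were Bcl6 at -0.81, Cux2 at 0.62 and Ppara at -0.55. Nearer to 0, Hnf4a, known for driving human CYP2D6, was at 770.5 CPM in the AAOT pool and 784 CPM in the control pool. Nr0b2, which encodes SHP, a repressor of human CYP2D6, was at 67.5 CPM in the AAOT pool and 66.2 CPM in the control pool. Among male-predominant liver genes, the list that holds Cyp2d9, 1 of 14 was at least 2-fold lower (Mup1, at -1.65), 0 were higher and the median was -0.27, beside a log2 ratio of 0.05 for Cyp2d9. Next in distance from 0 came Egfr at -0.96, Rarres1 at -0.95 and Gstp1 at 0.91. Among female-predominant genes 5 of 19 were at least 2-fold higher, 0 were lower and the median was 0.77. The farthest from 0 were Sult2a1 at 2.52, Prom1 at 1.58, Cyp2a4 at 1.51 and Nipal1 at 1.09.

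**Figure D5:**
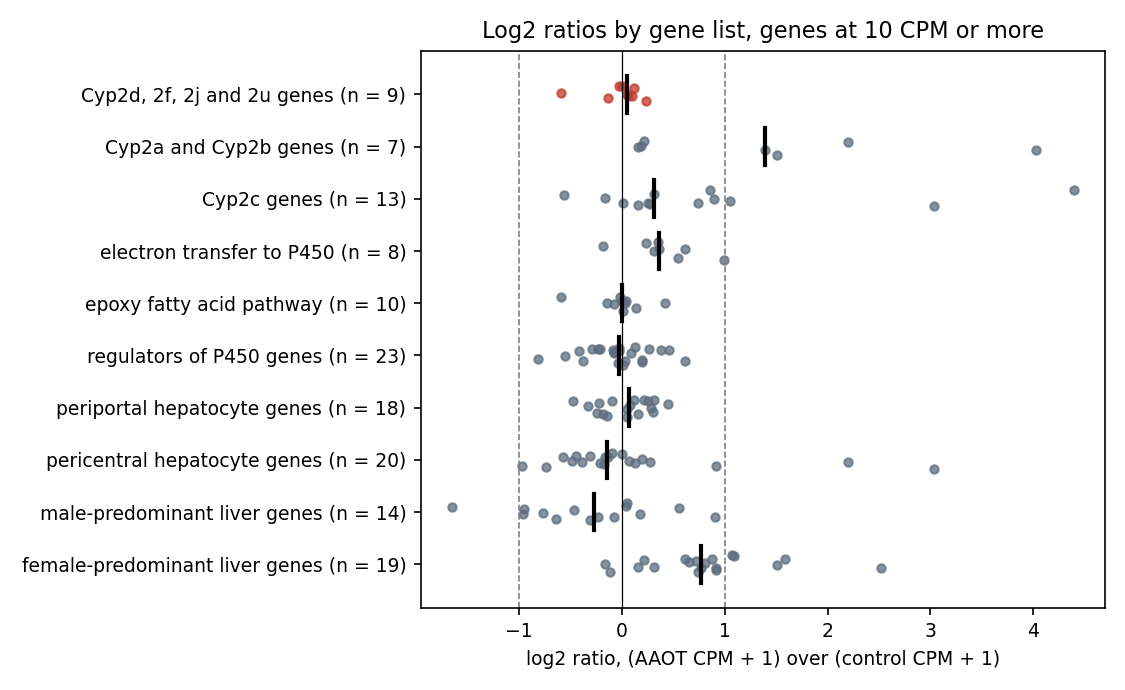
Each point is the log2 ratio of 1 gene at 10 CPM or more, black bars are medians and dashed lines mark 2-fold. The 9 genes (top) lie between -0.59 and 0.23 with a median of 0.05, while the Cyp2a and Cyp2b genes have a median of 1.40 and reach 4.03.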

How the data were processed

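The authors deposited 1 table of CPM, with a scaling factor per library and 1 column per pooled library. Per the submitters' processing notes, the tools were RSEM, Bowtie2, edgeR and Trimmomatic 0.38 on mm10, with no roles given. Which annotation was used is not stated there. Per the labels' protocols, directional libraries were made from rRNA-depleted total RNA. All values (100%) were whole multiples of 1 step per column, within a relative tolerance of 1e-06, which gave back reads. A count model was not run, since 1 library per group leaves no residual degrees of freedom, and the number of genes such a test would call is not given. Intervals are Clopper-Pearson at 95%, conditional on the sum of 2 read counts (Poisson for levels per kb), and treat reads as independent molecules. Transcript lengths, coding sequences and 50-base stretches come from the longest protein-coding transcript in GENCODE M21, and positions and promoters from RefSeq on GRCm38.p6, the assembly named mm10. The NOG genome may differ from it. The 9 genes, 8 gene lists and the markers were chosen with earlier results of these data known. Named are the 9 genes, listed relatives, up to 3 listed neighbours per side, and up to 4 genes of each list farthest from 0, with Por; 1 such gene is not reported here. Ephx2, Cyp2c44, Cyp2e1, Hnf4a and Nr0b2 were named after their values were seen. The steps were tested on simulated reads. Software was Python 3.11.15 with Biopython 1.88, scipy 1.17.1, pandas 2.3.3, matplotlib 3.10.9 and numpy 2.4.6, and R 4.3.3 with edgeR 4.0.16 for 1 alternative scaling.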

Additional observations from a re-analysis of the deposited data

How the results depend on the processing

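None of the 9 genes was at least 2-fold higher (0) under any of the 12 alternatives tried, and the count at least 2-fold lower was 0 under 11 of them. It was 1, Cyp2u1, at a size of 1.5-fold. Some alternatives changed the size counted, 1.5-fold or 4-fold in place of 2-fold. The highest log2 ratio of the 9 was 0.23, below even the 1.5-fold size at 0.585, and the largest shift by a scaling tried was 0.036. None of the alternatives tried could therefore have raised the count of higher genes, so its staying at 0 is no test of it. The median log2 ratio of the 9 stayed between 0.04 and 0.08, also without Cyp2u1, an alternative chosen after seeing the data. Rescaling to the column totals adds 0.036 to the log2 ratio of nearly every gene and brought the sum of the Cyp2d genes to 0.077, outside its counting interval. The other 4 scalings shifted ratios by between -0.007 and 0.016. The sum of the Cyp2j genes ranged from 0.11 to 0.16. Of 69 values of single genes under alternatives, 63 stayed within their counting intervals, 6 did not, and 4 crossed 0, for Cyp2d10, Cyp2d26 and Cyp2d40. Some of these, with the crossing of Cyp2d40, came from summing a gene with the listed genes that share stretches with it. For Cyp2d22 such a sum gave 0.04, against 0.23 alone. These sums are carried largely by the more abundant Cyp2d genes, so they do not test the value of a single gene. A floor of 50 CPM left 7 of the 9. Over the whole table, 60 genes were at least 2-fold higher and 33 lower, against 90 and 55 with a floor of 1 CPM, 37 and 15 with 50 CPM, 94 and 60 with none, 161 and 108 at 1.5-fold and 8 and 6 at 4-fold. No paired analysis was possible because each group is 1 library. Depth limits Cyp2u1, Cyp2j9, Cyp2j13 and Cyp2d12.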
